A study of Mus musculus with 8 samples.

Results

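Cell cycle genes were followed in endothelial cells of the mouse lung, the cells that line its blood vessels, through 38 genes fixed by symbol: 23 genes of mitosis, 11 of DNA replication and nucleotide supply, and 4 that control the G1 phase. All 38 were among the 34899 genes measured. The cells came from female C57BL6 mice and had been sorted by flow cytometry as negative for CD45, the marker of leukocytes, and positive for CD31, a surface protein of endothelium. RNA-seq had been performed on 4 libraries from HF mice and 4 from LF mice. The labels spell out neither name and give no age, diet or treatment. The design text counts 4 mice per group, and pooling is not mentioned. The series title places the study in obesity and vascular inflammation. No allele, transgene or agent is named for either group, so strain, sex, tissue and sort are what the groups share.

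A cell that divides copies its DNA in S phase and separates the copies in mitosis. In G1, cyclin D with CDK4 or CDK6 and then cyclin E with CDK2 inactivate the retinoblastoma proteins and release E2F factors, which turn on the replication genes, and p21 holds these kinases back. The mitosis genes are turned on later, through B-MYB and FOXM1, and are kept silent in resting cells by the DREAM complex. Most endothelial cells of adult vessels rest outside the cycle and hold few mitotic transcripts, whereas MCM helicase subunits and PCNA are also made by resting cells to some extent.

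Promoters of 6 members are shown because their letters differed between mitosis and replication genes. Windows run from 250 bases before to 50 after the gene's start, from RefSeq on GRCm38.p6, and are written 5′ to 3′ on the gene's strand. Capitals mark, on either strand, the cell cycle homology region (CHR) TTTGAA, which the DREAM complex and B-MYB with FOXM1 bind, the CCAAT box CCAAT, bound by NF-Y, and the E2F letters TTTCCCGC, TTTCGCGC, TTTGCCGC and TTTGGCGC. The windows lie at chr7:135716330-135716629 for Mki67, chr11:99024140-99024439 for Top2a, chr9:70421505-70421804 for Ccnb2, chr10:69352863-69353162 for Cdk1, chr1:20820263-20820562 for Mcm3 and chr1:128359656-128359955 for Mcm6, all on the minus strand.
Mki67: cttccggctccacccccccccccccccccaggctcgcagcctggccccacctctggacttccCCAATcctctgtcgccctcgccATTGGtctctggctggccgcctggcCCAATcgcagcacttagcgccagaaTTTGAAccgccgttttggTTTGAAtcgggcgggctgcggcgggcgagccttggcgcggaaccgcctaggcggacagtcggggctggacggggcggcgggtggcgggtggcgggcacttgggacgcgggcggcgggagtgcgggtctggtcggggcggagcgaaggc
Top2a: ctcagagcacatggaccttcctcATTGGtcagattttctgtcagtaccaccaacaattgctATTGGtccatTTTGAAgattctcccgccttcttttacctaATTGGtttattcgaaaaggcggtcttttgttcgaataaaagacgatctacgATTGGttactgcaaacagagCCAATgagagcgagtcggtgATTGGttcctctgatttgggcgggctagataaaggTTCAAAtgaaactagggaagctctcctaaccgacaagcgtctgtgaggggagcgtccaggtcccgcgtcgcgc
Ccnb2: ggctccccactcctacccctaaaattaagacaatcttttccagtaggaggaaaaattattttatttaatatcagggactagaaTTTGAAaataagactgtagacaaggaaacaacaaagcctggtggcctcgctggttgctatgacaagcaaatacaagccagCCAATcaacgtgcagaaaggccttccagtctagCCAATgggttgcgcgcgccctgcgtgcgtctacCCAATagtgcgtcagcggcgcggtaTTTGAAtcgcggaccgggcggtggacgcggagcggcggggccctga
Cdk1: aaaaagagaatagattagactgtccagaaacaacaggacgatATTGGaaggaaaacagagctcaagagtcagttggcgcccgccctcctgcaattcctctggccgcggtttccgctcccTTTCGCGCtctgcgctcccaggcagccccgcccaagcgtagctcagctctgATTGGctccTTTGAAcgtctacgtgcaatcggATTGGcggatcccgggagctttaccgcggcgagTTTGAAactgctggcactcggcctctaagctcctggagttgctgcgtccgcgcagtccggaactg
Mcm3: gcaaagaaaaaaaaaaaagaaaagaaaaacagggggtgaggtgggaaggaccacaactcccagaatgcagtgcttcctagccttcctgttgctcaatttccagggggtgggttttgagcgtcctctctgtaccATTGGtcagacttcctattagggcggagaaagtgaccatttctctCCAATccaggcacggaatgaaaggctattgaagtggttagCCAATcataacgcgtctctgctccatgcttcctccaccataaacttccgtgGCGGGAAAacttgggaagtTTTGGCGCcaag
Mcm6: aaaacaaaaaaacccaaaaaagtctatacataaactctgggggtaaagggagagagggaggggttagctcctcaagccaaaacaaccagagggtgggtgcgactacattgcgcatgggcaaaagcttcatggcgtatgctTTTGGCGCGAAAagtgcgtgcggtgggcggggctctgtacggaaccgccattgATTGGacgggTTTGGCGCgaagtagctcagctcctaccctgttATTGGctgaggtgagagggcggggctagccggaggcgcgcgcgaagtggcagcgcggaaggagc

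Each of the 4 mitosis genes shown held 2 CHR matches, and Cdk1 held an E2F match as well. No other mitosis window searched held more than 1 CHR match. Mcm3 held 2 E2F matches and Mcm6 held 3, of which the pair that starts 110 and 106 bases before the start shares letters, and neither held a CHR. RefSeq windows were at hand for 19 of the 23 mitosis genes and 10 of the 11 replication genes. The CHR stood in 15 of 20 mitosis windows (75%), in 1 of 11 replication windows (9.09%) and in 17.9% of all 32851 windows. E2F letters stood in 4 of 11 replication windows (36.4%), in 1 mitosis window (5%) and in 2.26% of all windows. CCAAT stood in 18 of the mitosis windows and 9 of the replication windows (90% and 81.8%), against 37.4% of all. The 4 windows of E2f1, Ccne1 and Cdkn1a held none of these letters. A match describes the letters only.

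Libraries held 10631506 to 20781564 reads in genes. LF 1 and LF 2 stood apart from the other libraries on the first principal component of all genes tested (-56.4 and -50.9, against -6.79 to 39.6), so results are also given without them and without the other LF pair. Of the 10 endothelial markers none was at 0 in any library, and their summed normalised count was 164334 to 185507 in HF and 122839 to 199645 in LF. LF 1 and LF 2 had the lowest of these sums, 122839 and 135366. The HF mean was the higher in 8 of the 10 endothelial genes and the lower in 2. Markers of other cells were present at lower sums: 14 leukocyte genes at 3561 to 6954 in HF and 6285 to 8003 in LF, 9 epithelial genes at 9638 to 18127 and 12595 to 25835, 9 mesenchymal genes at 2541 to 4577 and 3564 to 6759, and 6 erythroid genes at 21341 to 24016 and 23719 to 43524. The HF mean was the lower in all 14 leukocyte, 9 epithelial and 6 erythroid genes and in 8 of the 9 mesenchymal genes. Only Marco and Cd3e were at 0 in some libraries. Like the sum of the mitosis genes below, the sums of these markers of other cells had lower means in HF. The part of any marker list in the results was not tested. In sorted bulk RNA, fewer dividing cells and less RNA per dividing cell cannot be told apart.

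Mitosis genes had lower levels than replication genes. Values are the authors' normalised read counts, which are not scaled for gene length. Over the 8 libraries the mean of the 23 mitosis genes ranged from 8.05 to 99.95 with a median of 30.1, and 17 of them had a mean under 50. The 11 replication genes ranged from 67.9 to 1888 with a median of 433. Per kilobase of exon, the scale on which genes can be compared, the median was 7.04 for mitosis genes, 87.0 for replication genes and 67.2 for all 17067 genes tested, so that the replication median was 12.4 times the mitosis median. On this scale 21 of the 23 mitosis genes lay below every replication gene, and 6 of the 11 replication genes lay above every mitosis gene. Cdc20, the activator of the anaphase-promoting complex, had the highest level per kilobase among the mitosis genes at 53.5. Its exons overlap on the other strand those of Elovl1, a fatty acid elongase at 5233 ± 607 in HF and 4161 ± 1463 in LF (SD, n = 4), and the sources used here do not give the strand setting of the counting, so reads of the 2 genes cannot be told apart without it.

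Counts of the mitosis genes were low, and their spread between libraries was wide. In 19 of the 23 mitosis genes no library had as many as 100 reads. The coefficient of variation (SD over mean) within groups had a median of 35.3% over the mitosis genes, where counting reads at these depths would alone give 18.2%. For the replication genes the medians were 15.3% and 4.79%. The spread within groups exceeded the counting error in 22 of 23 mitosis genes, Birc5 being the exception (17.9% against 20.3%), and in 11 of 11 replication genes. No molecular identifiers are named, so PCR copies may be among the reads and the counting error is a lower limit.

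**Figure D1:**
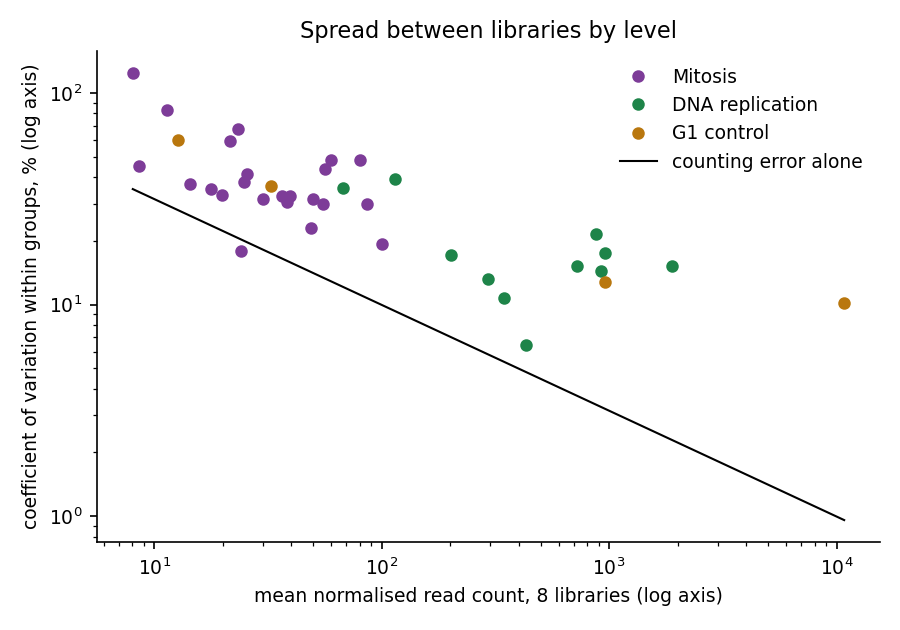
Coefficient of variation within groups in percent (pooled over HF and LF, n = 4 each) against the mean normalised read count over 8 libraries, both on log axes, with 1 point per gene and a line for counting error alone. Mitosis genes lie at the left with a median spread of 35.3%, replication genes lie further right with 15.3%, and every point but that of Birc5 lies above the line.

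No member passed the test of HF against LF. The test was limma's moderated test on log2(normalised count + 1) over the 17067 genes that reached 10 normalised counts in 4 or more libraries, and a gene passed at a Benjamini-Hochberg adjusted p under 0.05. Of the 38 members, 36 entered it. The 2 left out were Aurkb and Bub1, for low counts. Limma passed 0 of the 36, as it passed 0 of all genes (0%). At an unadjusted p under 0.05 there were 3 members (8.33%), all lower in HF, against 11.0% of all genes in either direction, 4.67% lower and 6.36% higher. EdgeR's quasi-likelihood test passed 0 members and 0% of genes (11.2% at an unadjusted p under 0.05). DESeq2 passed 0 members and 1.81% of genes (12.2% at an unadjusted p under 0.05). Counted in either direction, the members' share at an unadjusted p under 0.05 lay near that of all genes. In the authors' deposited table the lowest adjusted p of any member was 0.166, for Cenpe.

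With all 8 libraries, the medians of mitosis and replication genes nonetheless lay on different sides of 0. In 17 of the 21 mitosis genes tested the mean log2 value was lower in HF. Their median log2 fold change was -0.52. Over all genes tested 46.8% were lower, 53.2% higher and the median was 0.02. In 9 of the 11 replication genes it was higher in HF, with a median of 0.16. With quantile normalisation the medians were -0.30 and 0.082, and without HF 4 they were -0.33 and 0.095. Without LF 1 the replication median was 0.0698 and without LF 4 it was 0.27. Without both LF 1 and LF 2 it was -0.041, with 8 of the 11 lower in HF, on the same side of 0 as the mitosis median. Without the filter on low counts the mitosis median over all 23 genes was the same, -0.52, with 19 lower. Level itself went with direction in these data. Among the 5881 genes with means between 11.4 and 99.95, the range of the mitosis genes tested, 70.8% were lower in HF and the median was -0.22. Among the 9601 genes in the range of the replication genes, 37.2% were lower and the median was 0.07. Low-count genes as a whole thus had lower values in HF, and the part of level in the mitosis median was not tested.

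**Figure D2:**
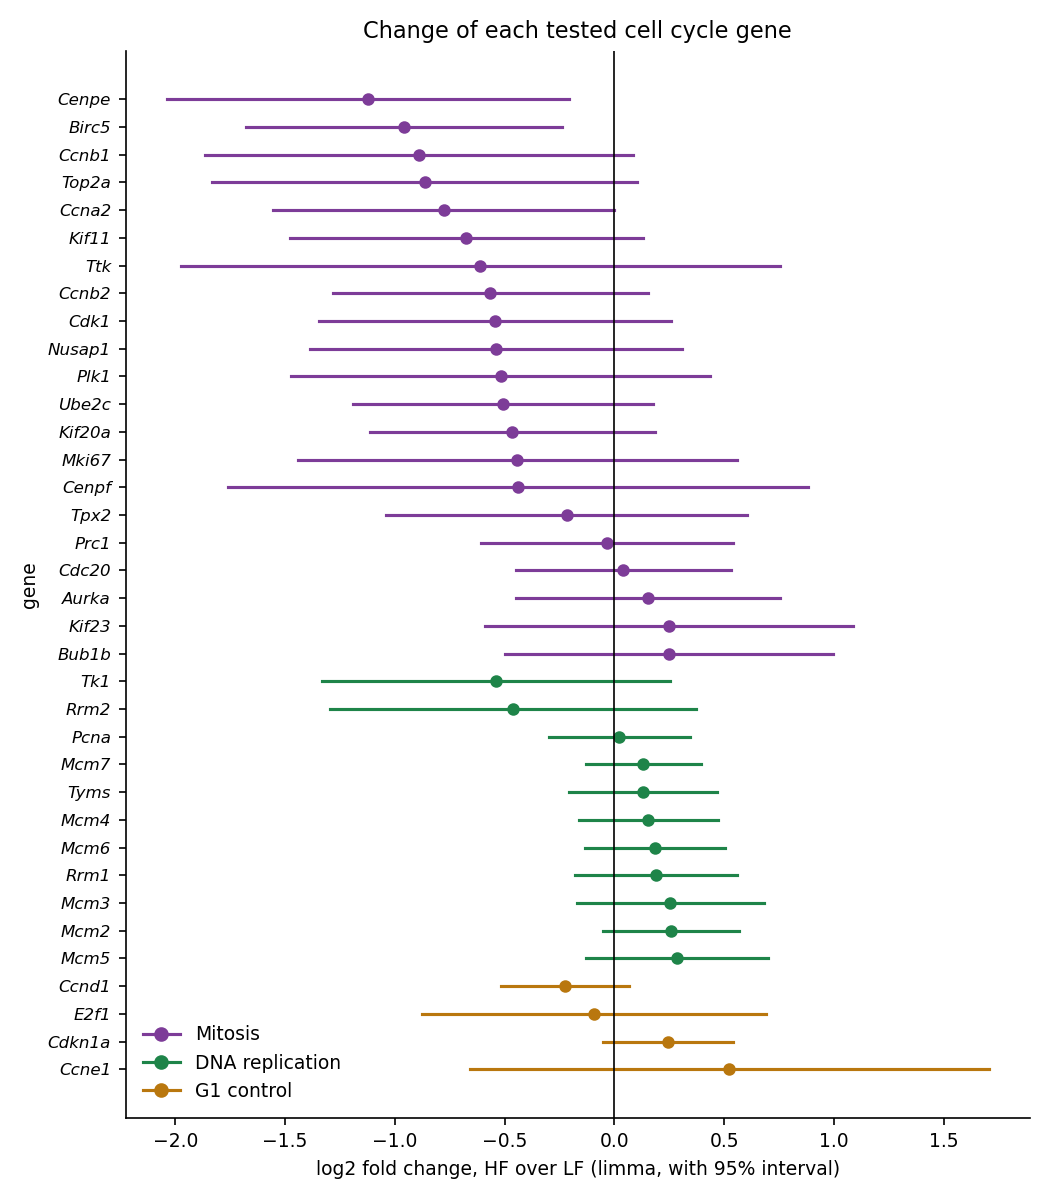
Log2 fold change of HF over LF for the 36 members tested, with the 95% interval from limma (n = 4 libraries per group), grouped by role. Of the 21 mitosis genes 17 lie left of 0 and of the 11 replication genes 9 lie right of it, and the intervals of Cenpe, Birc5 and Ccna2 alone leave out 0.

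Among the mitosis genes, Birc5 and Cenpe separated the groups. Birc5 encodes survivin, a subunit of the chromosomal passenger complex that guides chromosome attachment and cytokinesis (ENSMUSG00000017716, chromosome 11 from 117849251 to 117855743 in the GENCODE M21 annotation of GRCm38). It was at 20.3, 8.89, 19.4 and 17.3 in HF 1 to HF 4 and at 35.4, 30.5, 28.1 and 32.8 in LF 1 to LF 4. Every HF library lay below every LF library. The fold was 0.515 (95% interval 0.313 to 0.847; limma unadjusted p = 0.0131, adjusted p = 0.314). These values rest on 10 to 33 reads per library.

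Cenpe encodes the kinesin that carries chromosomes to the spindle equator. It was at 15.2, 13.3, 14.6 and 7.09 in HF and at 56.1, 20.3, 29.1 and 17.0 in LF. The groups did not overlap, though HF 1 and LF 4 lay close together, and LF 1 stood highest. The fold was 0.459 (0.243 to 0.867; limma unadjusted p = 0.0204, adjusted p = 0.352). Groups that did not overlap were 2 of the 36 members tested (5.56%), both with HF below LF, against 5.43% of all genes tested, 1.96% with HF below LF and 3.47% with HF above.

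Ccna2 encodes cyclin A2, which drives S phase and entry into mitosis. It was at 42.7, 40.9, 18.5 and 15.8 in HF and at 41.5, 53.6, 55.2 and 38.4 in LF. HF 1 and HF 2 lay within the LF range, while HF 3 and HF 4 lay below it. The fold was 0.584 (0.341 to 0.999; limma unadjusted p = 0.0498, adjusted p = 0.453). Its exons overlap those of Exosc9 on the other strand.

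Mki67 and Top2a, the usual markers of cycling cells, varied more between libraries of a group than between the groups. Mki67, which encodes the Ki-67 protein that coats mitotic chromosomes, was at 51.8, 31.1, 70.9 and 35.4 in HF and at 90.3, 103, 73.3 and 20.4 in LF. LF 4 had the lowest value of all 8 libraries and the other 3 LF libraries the highest. The fold was 0.736 (0.368 to 1.47; limma adjusted p = 0.724). Top2a, the topoisomerase that untangles sister DNA, was at 65.03, 23.1, 126 and 36.2 in HF and at 119.6, 119, 98.4 and 56.5 in LF. HF 3 was the highest library and HF 2 the lowest. The fold was 0.549 (0.281 to 1.07; limma adjusted p = 0.4998). Cdc20 was at 78.2, 114, 96.2 and 116 in HF and at 68.3, 103, 116 and 107 in LF, with ranges that largely coincided and a fold of 1.03 (0.732 to 1.44; limma adjusted p = 0.954).

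The other mitosis genes tested had log2 fold changes from -0.89 to 0.25. The lowest was that of Ccnb1, cyclin B1, the partner of Cdk1 at mitotic entry, and the highest were those of Bub1b and Kif23, a spindle checkpoint kinase and a kinesin of the central spindle, both at 0.25. Ccnb2 and Cdk1 had folds of 0.675 and 0.686, Plk1, the polo-like kinase, 0.698, and Kif11, the motor that pushes spindle poles apart, 0.627. Aurka, the kinase of spindle poles, had a fold of 1.11. Ccnb2 has a transcribed pseudogene, Ccnb2-ps, at 32.6 ± 14.5 in HF and 38.5 ± 15.8 in LF (SD, n = 4), and reads of the 2 may be shared.

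The genes left out of the test were kinases of the passenger complex and the checkpoint. Aurkb, the kinase of the same complex as survivin, was at 4.06, 0, 5.83 and 7.88 in HF and at 11.0, 12.0, 19.1 and 9.05 in LF. Every HF library lay below every LF library, on 0 to 19 reads per library. The share of such groups was not counted over genes below the filter, so there is none to set Aurkb against. The 0 reads of HF 2 allow a normalised count of up to 2.67, at 3 reads. Without a filter, limma gave Aurkb a fold of 0.314 (0.117 to 0.842; unadjusted p = 0.0241, adjusted p = 0.498), where 8.25% of the 34899 genes had an unadjusted p under 0.05. Bub1 was at 0, 12.4, 23.3 and 0 in HF and at 0, 18.5, 9.03 and 1.13 in LF, so that both groups held libraries with no reads and libraries with more than 8 normalised counts. Zero reads allow up to 3.05, 2.36 and 3.66 normalised counts in HF 1, HF 4 and LF 1.

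**Figure D3:**
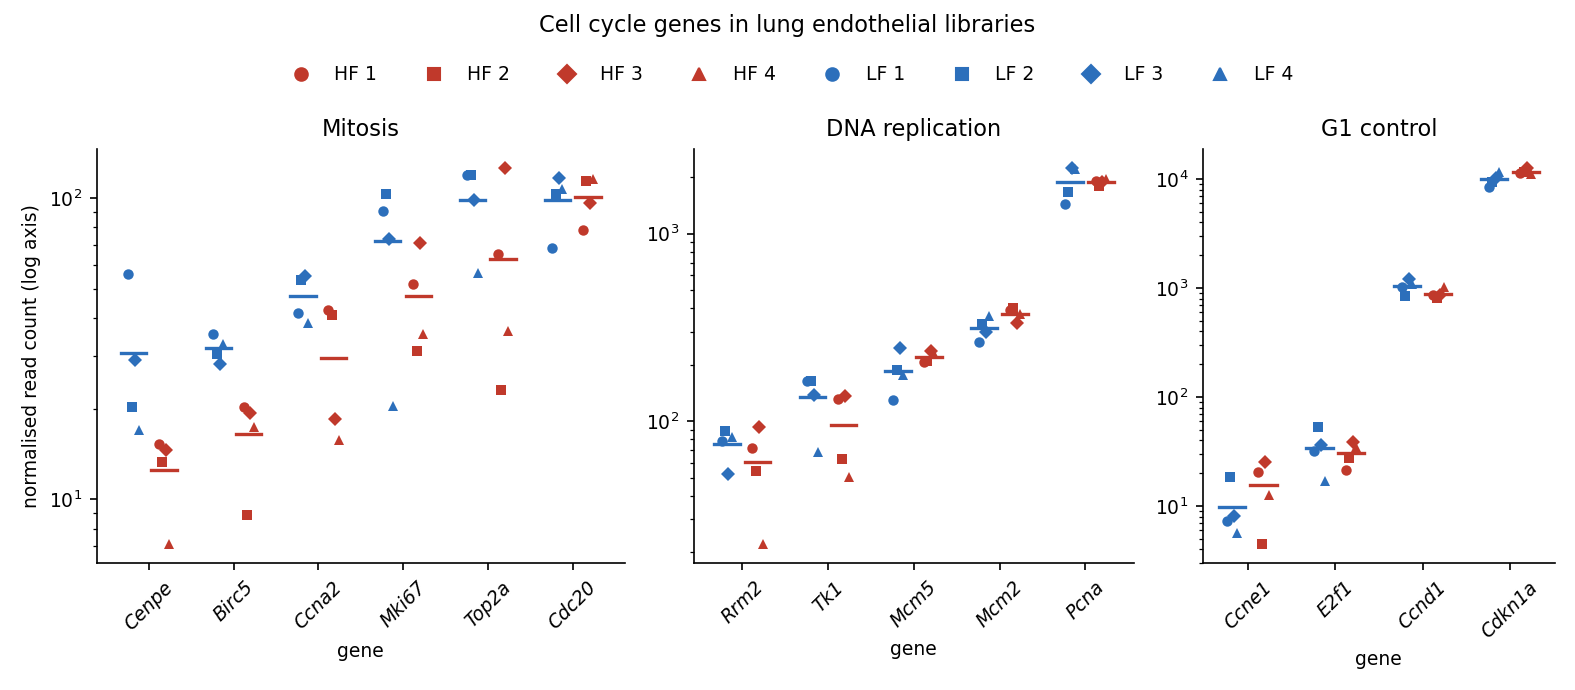
Normalised read count (log axis) of 15 members in each library, with HF in red, LF in blue, a marker shape for each replicate number and a horizontal line at each group mean. The 4 HF points of Birc5 and Cenpe lie below the 4 LF points, while HF and LF overlap for the other genes drawn, and the replication genes lie above most mitosis genes.

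Among the replication genes, the 6 subunits of the MCM helicase, the ring that unwinds DNA at the fork, had higher mean values in HF in 6 of 6, with log2 fold changes from 0.13 to 0.28 and none that passed. Without LF 1 and LF 2 the mean log2 value was higher in 3 of the 6 and lower in 3. Mcm2 was at 392.2, 399.9, 332 and 371 in HF and at 264, 329, 299 and 363 in LF. LF 4 lay within the HF range and the other LF libraries below it. The fold was 1.197 (0.965 to 1.48; limma adjusted p = 0.527). Mcm5 was at 207, 211, 236 and 228 in HF and at 131, 188, 246 and 176 in LF. LF 3 was the highest library and LF 1 the lowest, and the fold was 1.22 (0.914 to 1.62; limma adjusted p = 0.594). The folds of Mcm3, Mcm4, Mcm6 and Mcm7 were 1.19, 1.11, 1.14 and 1.10. Mcm7 overlaps Cops6 and Ap4m1 on the other strand and holds Mir25 and Mir93.

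Pcna, the clamp that holds polymerases on DNA, had the highest level of the replication genes. It was at 1913, 1803, 1881 and 1948 in HF and at 1441, 1657, 2248 and 2209 in LF. The HF libraries lay together, and the LF libraries lay 2 below and 2 above them. The fold was 1.016 (0.813 to 1.27; limma adjusted p = 0.960), and the sign of this difference turned with the count models and with quantile normalisation. The pseudogene Pcna-ps2 was at 62.1 ± 9.99 in HF and 62.6 ± 11.1 in LF (SD, n = 4).

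Ribonucleotide reductase makes deoxynucleotides from its large subunit, Rrm1, which is stable through the cycle, and its small subunit, Rrm2, which is made in S phase and destroyed afterwards. Rrm1 was at 994, 1066, 911 and 1069 in HF and at 632, 813, 1079.9 and 1098 in LF. LF 1 and LF 2 were low and all other libraries lay between 911 and 1098, with a fold of 1.14 (0.883 to 1.47; limma adjusted p = 0.685). Rrm2 was at 72.1, 54.2, 93.3 and 22.1 in HF and at 78.1, 88.7, 52.2 and 82.6 in LF. HF 4 was the lowest library and HF 3 the highest, and the fold was 0.726 (0.407 to 1.295; limma adjusted p = 0.662). Per kilobase of exon the 2 subunits were at 87.0 and 24.5.

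Tk1, the cytosolic thymidine kinase, which also is made in S phase and destroyed in mitosis, was at 131, 63.1, 136 and 50.4 in HF and at 165, 164, 138 and 69.0 in LF. HF 2, HF 4 and LF 4 were low and the other 5 libraries lay between 131 and 165. The fold was 0.688 (0.397 to 1.19; limma adjusted p = 0.600). Rrm2 and Tk1 were the 2 replication genes whose mean log2 value was lower in HF, and with 24.5 and 22.0 they had the lowest levels per kilobase of the 11. Without HF 4 their log2 fold changes were -0.048 and -0.28, against -0.46 and -0.54 with all libraries. Tyms, thymidylate synthase, had a fold of 1.10.

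Sums over the members show the same contrast by library. The 23 mitosis genes summed to 737, 716, 981 and 655 normalised counts in HF and to 1064, 1156, 989 and 743 in LF, a mean of 772 ± 143 against 988 ± 177 (SD, n = 4). HF 3 lay with LF 3, and LF 4 lay with HF 1 and HF 2, so the groups overlapped. The 11 replication genes summed to 6981, 7240.2, 6554 and 7591 in HF and to 5229, 6011, 7381 and 7600.5 in LF, a mean of 7092 ± 437 against 6555 ± 1130 (SD, n = 4). LF 1 and LF 2 had the lowest replication sums and the highest mitosis sums. HF 4 had the lowest mitosis sum and, after LF 4, the highest replication sum. The mean log2 level of the replication genes exceeded that of the mitosis genes by 4.24, 4.23, 3.72 and 4.33 in HF and by 3.31, 3.28, 3.61 and 4.16 in LF. HF 3 and LF 4 were where the groups overlapped in this difference too. Of the 23 mitosis genes, 8 were lowest in HF 4 and 6 highest in LF 2, and of the 11 replication genes 7 were lowest in LF 1.

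**Figure D4:**
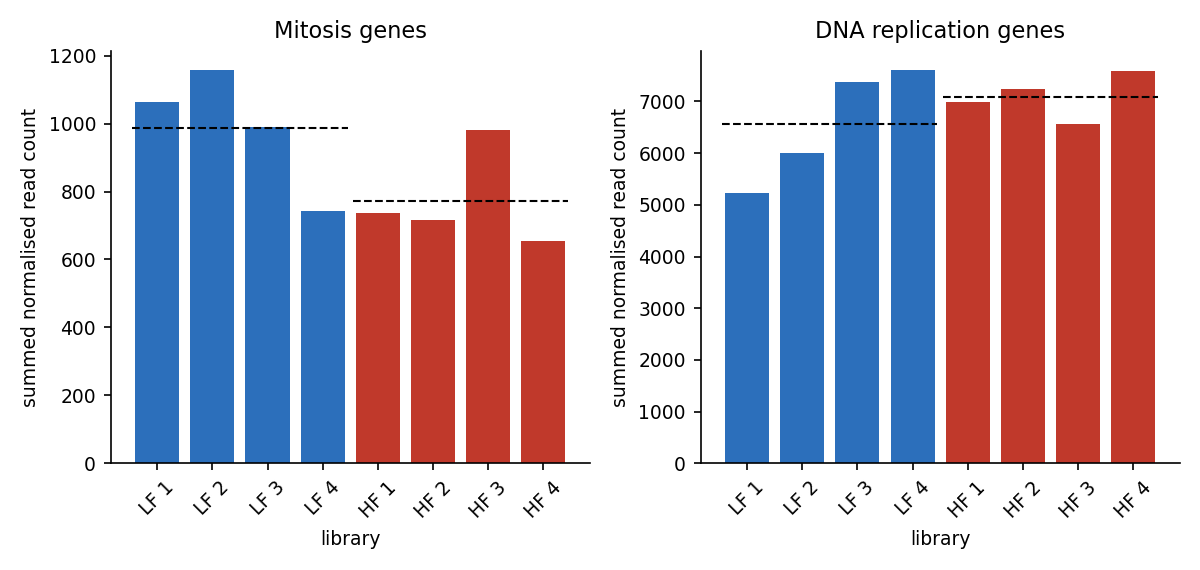
Summed normalised read counts of the 23 mitosis genes (left) and 11 replication genes (right) in each library (bars, LF in blue and HF in red), with a dashed line at each group mean. LF 1 and LF 2 have the highest mitosis sums (1064 and 1156) and the lowest replication sums (5229 and 6011), while LF 4 lies among the HF libraries for mitosis genes.

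The sign of the replication median differed between fits that left out either LF pair, while the mitosis median was below 0 in both. The 2 fits share all 4 HF libraries. Without LF 1 and LF 2, the mitosis median was -0.34 with 15 of 21 lower in HF, the replication median was -0.041 with 8 of 11 lower, where 54.6% of all genes were lower. Limma passed no member in this fit and 3.76% of all genes. Without LF 3 and LF 4, the mitosis median was -0.76 with 19 lower and the replication median 0.32 with 9 higher, where 47.5% of all genes were lower. In this fit 4 members passed limma's adjusted threshold, as did 20.0% of all genes, 14.0% higher and 6.02% lower in HF. By limma these were Mki67, lower in HF (log2 fold change -1.09, adjusted p = 0.046), and Rrm1 (0.49, adjusted p = 0.025), Mcm6 (0.41, adjusted p = 0.038) and Cdkn1a (0.39, adjusted p = 0.019), higher. Without LF 1 and LF 2 the same 4 had log2 fold changes of 0.21, -0.11, -0.039 and 0.096.

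**Figure D5:**
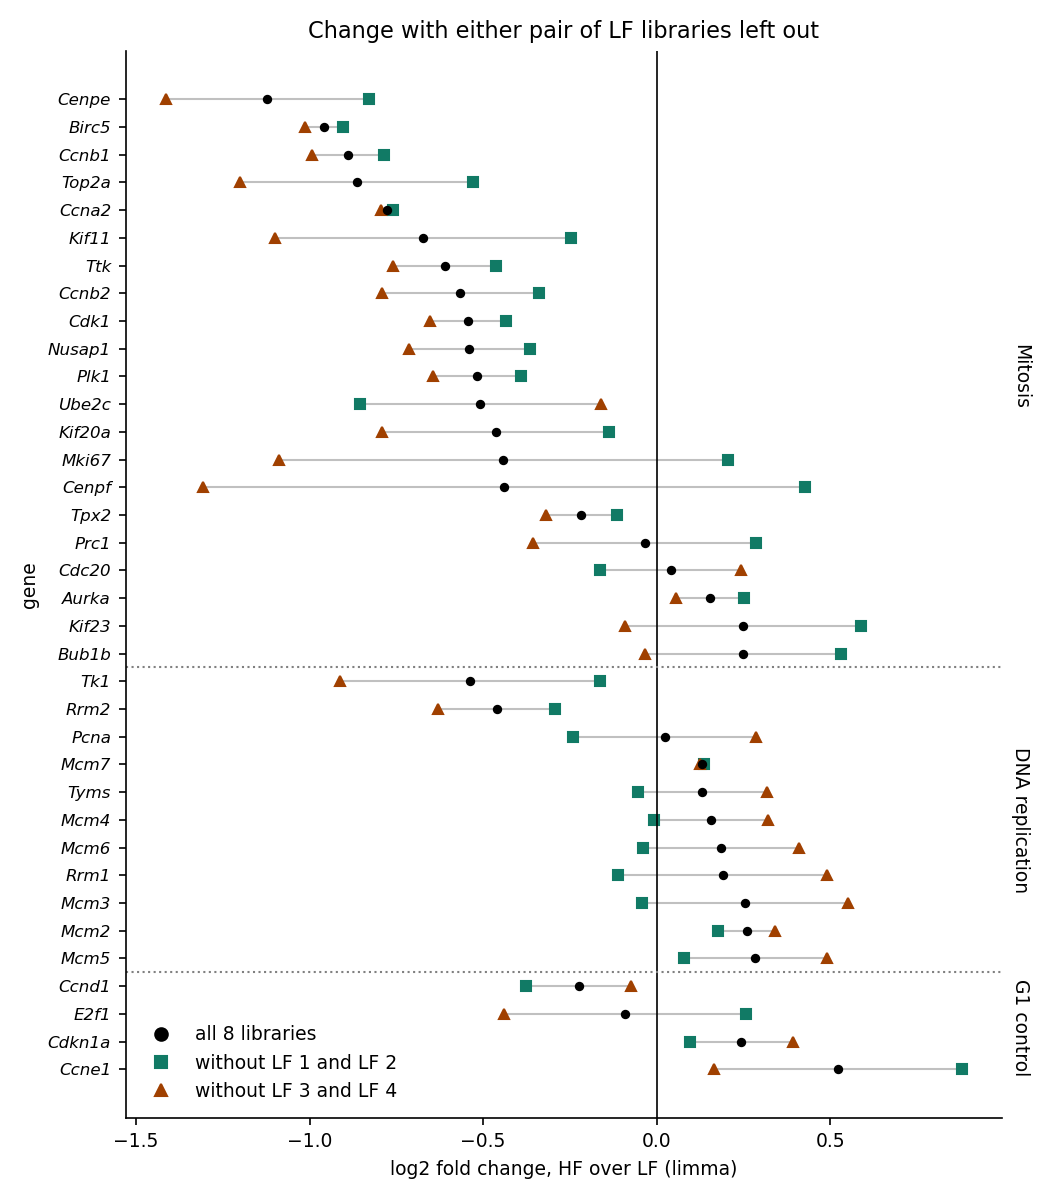
Log2 fold change of HF over LF for the 36 members tested, from limma with all 8 libraries (black circles), without LF 1 and LF 2 (green squares) and without LF 3 and LF 4 (brown triangles), joined per gene by a grey line. Birc5, Ccna2 and Mcm7 hardly move between the fits, whereas Mki67 and Cenpf cross 0, from -1.09 to 0.21 and from -1.31 to 0.43.

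Of the 4 genes of G1 control, 2 were scarce and 2 abundant. E2f1, an activating E2F factor, was at 21.3, 27.5, 38.9 and 34.7 in HF and at 31.7, 52.7, 36.1 and 17.0 in LF, with LF 2 the highest and LF 4 the lowest library and a fold of 0.938 (0.545 to 1.61; limma adjusted p = 0.931). Ccne1, cyclin E1, was at 20.3, 4.44, 25.3 and 12.6 in HF and at 7.32, 18.5, 8.03 and 5.65 in LF. Both groups spanned low and high values, and the fold was 1.44 (0.633 to 3.26; limma adjusted p = 0.724).

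Ccnd1, cyclin D1, the sensor of growth signals in G1, was at 854, 809, 857 and 1015 in HF and at 1018, 842, 1197 and 1089 in LF. LF 2 lay within the HF range and the other LF libraries above it, LF 1 by little. The fold was 0.856 (0.6995 to 1.05; limma adjusted p = 0.557). Cdkn1a encodes p21, the inhibitor of cyclin-dependent kinases that p53 induces, and had the highest level of all members, 3040.1 per kilobase of exon. It was at 11369.6, 11539, 12729.6 and 11093 in HF and at 8492, 9307, 10185 and 11698 in LF. LF 4 lay within the HF range and the other LF libraries below it, and the fold was 1.18 (0.964 to 1.46; limma adjusted p = 0.536). The coefficient of variation within groups was 10.1% for Cdkn1a, where counting error alone would give 0.959%, so depth did not limit this comparison.

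Further genes of these pathways, from lists written beside the members, did not pass limma's adjusted threshold either. Of 43 other mitosis genes tested (60 listed) 25 had a lower mean log2 value in HF. The median log2 fold change of the 43 was -0.09, and an unadjusted p under 0.05 was found for 2 higher and 1 lower. Of 46 other replication genes (47 listed) 26 were higher, the median was 0.06, and 2 lower genes had such a p. The shares with such a p were 6.98% and 4.35% in these 2 lists, against 11.0% of all genes tested. With no threshold 46.8% of all genes tested were lower and 53.2% higher. Ncaph, a condensin subunit, was at 653 ± 174 in HF and 441 ± 75.3 in LF (SD, n = 4), a fold of 1.46, and Lmnb1, lamin B1, had a fold of 1.70, and both had higher means in HF. Below a mean of 50, and chosen after their values were seen, Cdca8, of the chromosomal passenger complex, had a fold of 0.550 (limma unadjusted p = 0.0265, adjusted p = 0.384) and Cenpn, a centromere protein, 0.748 (adjusted p = 0.548), and in both every HF library lay below every LF library. These 2 were the only groups without overlap among the 43 (4.65%). Over all genes tested 5.43% did not overlap, 1.96% with HF below LF. Incenp, also of the chromosomal passenger complex, was at 114 ± 24.9 in HF and 124 ± 18.7 in LF (SD, n = 4). Its groups overlapped, and its fold was 0.911 (limma adjusted p = 0.812). Cdc25b, a phosphatase that activates Cdk1, had a fold of 1.26. Among replication genes, Gins4, of the GINS complex, and Dut, the dUTPase, had folds of 1.196 and 1.28. The limma adjusted p of Ncaph, Lmnb1, Cdc25b, Gins4 and Dut was 0.322 to 0.4998.

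Of 24 other G1 genes tested (25 listed) 18 were higher in HF, the median was 0.16, and an unadjusted p under 0.05 was found for 4 higher and 1 lower. That was 20.8% of the 24, against 11.0% of all genes tested, 6.36% higher and 4.67% lower. With no threshold 53.2% of all genes tested were higher. In 4 of the 24 every HF library lay above every LF library. Groups without overlap were 16.7% of the 24, against 5.43% of all genes tested, 3.47% with HF above LF. E2f6, a repressive E2F factor that acts without retinoblastoma proteins, was at 760.1, 876, 796 and 993 in HF and at 498, 671, 459 and 589 in LF. Every HF library lay above every LF library, with a fold of 1.55 (1.245 to 1.94; limma adjusted p = 0.163). E2f5, a repressor that works with the pocket proteins p107 and p130, was at 344, 475, 549 and 479 in HF and at 344, 251, 275 and 243 in LF, and HF 1 lay just above LF 1. Its fold was 1.65 (1.27 to 2.14; limma adjusted p = 0.164). DESeq2 passed both, as it passed 1.81% of all genes. The authors' deposited table also passed both (adjusted p = 0.0144 for E2f6 and 0.0123 for E2f5), among 311 of its 15276 genes with an adjusted p. Limma passed both in either fit that left out an LF pair, with adjusted p from 0.019 to 0.043. Rb1, the retinoblastoma protein itself, was at 1027 ± 140.4 in HF and 794 ± 44.0 in LF (SD, n = 4), with groups that did not overlap, a fold of 1.29 and a limma adjusted p of 0.314. On the other strand, exons of E2f5 overlap those of 1810022K09Rik, and exons of Rb1 overlap those of Lpar6 and Rcbtb2. Without the strand setting, reads of these overlapping genes cannot be told apart.

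Of 6 other CDK inhibitors tested (7 listed) 5 were lower in HF, the median was -0.21, and 1 lower gene had such a p. Cdkn2c, Cdkn2b and Cdkn2d, which block CDK4 and CDK6, had folds of 0.738, 0.837 and 1.23 (limma adjusted p = 0.433, 0.633 and 0.545). Of 17 genes listed for p53, its own gene and genes that it induces, 14 were higher in HF and the median was 0.13. Among the 17, 2 higher and 1 lower had such a p. These were 17.6% of the 17, and the share among the 6 CDK inhibitors was 16.7%. Over all genes tested 11.0% had such a p, and with no threshold 53.2% were higher and 46.8% lower. Phlda3, an inhibitor of AKT, was at 1715 ± 162 in HF and 1259 ± 337 in LF (SD, n = 4), a fold of 1.39, Sesn1, a sestrin, had a fold of 1.2003 and Zmat3, an RNA-binding protein, 0.788 (limma adjusted p = 0.340, 0.395 and 0.453). None of these genes passed.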

How the data were processed

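RNA had been isolated with TRIzol LS and made into libraries with a SMART-Seq kit, per the labels' protocols. STAR 2.6.1b was used with featureCounts 2.0.0 and DESeq2 1.24.0, per the submitters' processing notes, which give no order. Their build, annotation and strand setting were not found in the sources used here. Per library, the authors deposited normalised counts, a signal not scaled for gene length, and, per the file headers, their log2 fold change, Wald score, p-value and adjusted p-value.

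Multiplied by 1 size factor per library (0.820 to 1.27), 100% of values came out whole within 0.01 reads, which recovers the reads. Columns matched samples by title, with 0 left over. Positions, exon lengths and overlaps came from GENCODE M21 (GRCm38), where 34899 of 34899 IDs were found. The main test was limma 3.58.1 with a mean-variance trend, two-sided, without covariates, on log2(value + 1). EdgeR 4.0.16 and DESeq2 1.42.0 used the recovered reads. For low genes the log2 fold changes of limma differed from those of DESeq2 in either direction. Cenpe was at -1.12 with limma and -1.31 with DESeq2, and Top2a at -0.86 and -0.68. The scripts were tested on simulated data with 200 changed genes. Libraries of every pair differed beyond sampling noise (chi-square per degree of freedom 9.06 to 45.2). If libraries are not separate mice, p-values measure only the spread between samples. Leaving out LF pairs was among 18 alternatives.

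The members and 13 lists were chosen with earlier results of these data known. Values in each library are given for 11 fixed members and, per role, the gene with the highest mean and the 3 with the smallest unadjusted p; other lists give the 3 smallest p among genes with a mean of at least 50, of which 1 is not reported here. Aurkb, Bub1, Rrm1, Incenp and genes named by fold alone were added after their values were seen.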

Additional observations from a re-analysis of the deposited data

Results flagged for a closer look

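In 2 of 76 groups of 4 values, 38 members in HF and in LF, a library stood apart from its group by a gap larger than Dixon's 95% limit, where chance gives about 1 in 20. Aurka was at 32.5 in HF 1 and at 56.4 to 60.7 in the other HF libraries. Kif11 was at 29.1 in HF 4 and at 15.2 to 16.9 in the other HF libraries.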

How the results depend on the processing

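Over all genes, the number that passed was 0 with all 8 libraries, 0 to 1 without a replicate, 1 without a filter on low counts, 309 with DESeq2, 641 in the fit lacking LF 1 and LF 2, and 3421 in the fit lacking LF 3 and LF 4. The number of members that passed was 0 in the fits that left out 1 replicate and in the other fits but that without LF 3 and LF 4, where it was 4. The replication median was -0.041 without LF 1 and LF 2, 0.32 without LF 3 and LF 4 and 0.0698 to 0.27 without a replicate (0.27 without LF 4). The replication median exceeded the mitosis median by 0.67 with all libraries, 0.30 without LF 1 and LF 2, 1.08 without LF 3 and LF 4, and 0.43 to 0.91 without a replicate. With quantile normalisation the medians were -0.30 and 0.082, 0.38 apart. The mitosis median was -0.64 to -0.33 without a replicate and that of the G1 genes -0.0045 to 0.18. Only some members were followed through every alternative, and among these signs turned for Pcna, E2f1, Cdc20 and Mki67. Pcna was at -0.0145 with edgeR, -0.0195 with DESeq2 and -0.085 with quantile normalisation. It was at -0.24 without LF 1 and LF 2 and at -0.098 to 0.12 without a replicate. E2f1 was at 0.15 with quantile normalisation, 0.26 without LF 1 and LF 2 and -0.38 to 0.14 without a replicate. Cdc20 was at -0.16 without LF 1 and LF 2 and at -0.13 to 0.16 without a replicate. Mki67 was at 0.21 without LF 1 and LF 2. In that fit signs also turned for Mcm3 (-0.041), Mcm4 (-0.009), Mcm6 (-0.039), Rrm1 (-0.11), Tyms (-0.054), Cenpf (0.43) and Prc1 (0.29). Without LF 3 and LF 4 they turned for Bub1b (-0.034) and Kif23 (-0.090). The causes were not tested. With the replicate number as a block, 0 genes and 0 members passed and the medians were unchanged by construction; same-numbered libraries correlated by -0.22 to 0.18 in their deviations, so the numbers were not taken as pairs. Counting error had a median of 18.2% over the mitosis genes and spread within groups one of 35.3%.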

Other observations

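Below the filter on low counts, 3 further mitosis genes, chosen after their values were seen, had every HF library below every LF library. They came from the 60 other mitosis genes listed, of which 43 were tested. The share of such groups was 1.96% over the genes tested. It was not counted over genes below the filter, so there is no share to set these 3 against. Nuf2, a kinetochore protein, was at 3.05, 0, 4.86 and 0 in HF and at 17.1, 21.2, 18.1 and 6.79 in LF. Troap was at 0 in HF 1, HF 2 and HF 3, at 0.788 in HF 4, and at 4.88, 7.39, 6.02 and 6.79 in LF. Kif14, a kinesin of cytokinesis, was at 0, 1.78, 0.972 and 0 in HF and at 4.88, 4.62, 3.01 and 5.65 in LF. Without a filter, limma's adjusted p was 0.168 for Nuf2, 0.123 for Troap and 0.291 for Kif14. The highest library held 23 reads of Nuf2, 8 of Troap and 5 of Kif14, and the lowest held 0 of each. For Troap and Kif14 these are differences of a few reads per library. Spc25, a partner of Nuf2 in the NDC80 complex with higher counts, was at 317 ± 49.6 in HF and 397 ± 122 in LF (SD, n = 4). Its mean was lower in HF too, but its groups overlapped. Ndc80 and Spc24, of the same complex, had folds of 0.816 and 0.492 with groups that overlapped (limma adjusted p = 0.827 and 0.504).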
